A study of Triticum aestivum with 6 samples.

Results

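In the crown tissues of 3 synthetic hexaploid wheat lines, 36 of 37826 microarray probes (0.0952%) were bright in the lines with a Langdon parent, wild type and dwarf alike, and dark in the dwarf line with a Triticum turgidum subsp. carthlicum parent. The probes were chosen by their signals. A member had a signal of at least 1000 on all arrays of WT and Ldn/KU-2025, a signal under 30 on both arrays of crt/KU-2025, and a highest Ldn/KU-2025 signal of more than 0.5 times the lowest WT signal. One further probe that met these limits, rwhf1p23, was left out and is not described here. The signals that chose the members are therefore given as a description, and no test of them is offered. At least 1000 on all WT and Ldn/KU-2025 arrays was reached by 12081 probes (31.9% of all), and the members were 0.298% of these.

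The WT line, Ldn/KU-2059, came from the tetraploid wheat cultivar Langdon (Ldn) and the Aegilops tauschii accession KU-2059 and grew normally. The line Ldn/KU-2025 had the same tetraploid parent and the Ae. tauschii accession KU-2025. The line crt/KU-2025 had a parent of T. turgidum subsp. carthlicum (crt) and the same Ae. tauschii accession as Ldn/KU-2025. The labels describe both KU-2025 lines as grass-clump dwarfs. Plants of all lines were grown for 8 weeks at 24°C in 18 h of light and 6 h of dark, and total RNA of the crown, the shoot base that holds the shoot apical meristem, was labeled with Cy3. Each line was measured on 2 arrays of the 1-color KOMUGI 38k oligonucleotide array, from experiments that the study calls independent. Each line is 1 combination of parents, so that crt/KU-2025 differs from WT in both parents and from Ldn/KU-2025 in the tetraploid parent.

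A synthetic hexaploid wheat is made by crossing a tetraploid wheat, the donor of its A and B genomes, with Ae. tauschii, the donor of its D genome. Most wheat genes are therefore present as related copies, called homoeologs, on the A, B and D genomes that are expressed to different extents. An oligonucleotide probe is a short DNA strand made from the sequence of 1 wheat transcript, and its signal depends on the amount of transcript and on how well that transcript pairs with the strand. A low signal from less transcript and one from a transcript that differs in sequence under the probe cannot be told apart on these arrays. In whole crowns, fewer cells of a type and less RNA per cell cannot be told apart either.

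The 6 arrays were alike in reach, with 75.1% to 77.6% of the probes well above background by the scanner software and 0 saturated probes. The scaling factors that brought the arrays to a common mean were 1.66 to 1.79 in WT and Ldn/KU-2025 and 2.24 and 2.47 in crt/KU-2025. The lowest scaled signal still well above background was 23.9 to 27.9 over all arrays, and 25.8 and 24.2 on the crt/KU-2025 arrays. The WT and Ldn/KU-2025 arrays were on 1 slide and both crt/KU-2025 arrays on another, so that the line, its tetraploid parent and its slide cannot be told apart. Of the cell types a crown can hold, green tissue gave uneven signals between the crt/KU-2025 arrays. The summed signal of 19 probes for chlorophyll a/b binding proteins, ribulose bisphosphate carboxylase and its activase was 5417 and 5297 in WT, 29092 and 29971 in Ldn/KU-2025, and 16312 and 177025 in crt/KU-2025. The summed signal of the 36 members was 125295 and 123013 in WT, 131133 and 131591 in Ldn/KU-2025, and 337 and 271 in crt/KU-2025, low on both arrays.

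In crt/KU-2025 the members lay at the bottom of the scale. The lowest, median and highest member signals were 1011, 1964 and 19359.9 on the first WT array and 1037, 1851 and 18998.5 on the second. They were 1042, 1976 and 27606 on the first Ldn/KU-2025 array and 1039, 2037 and 29095 on the second. On the crt/KU-2025 arrays they were 5.11, 6.91 and 29.3, and 4.77, 6.25 and 25.2. The lowest signals of any probe on these crt/KU-2025 arrays were 5.10 and 4.77, so that the members reached down to the floor of both arrays. Of the 36 members, 0 were well above background on either crt/KU-2025 array, 27 were under 10 on the first, 30 on the second and 24 on both.

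**Figure D1:**
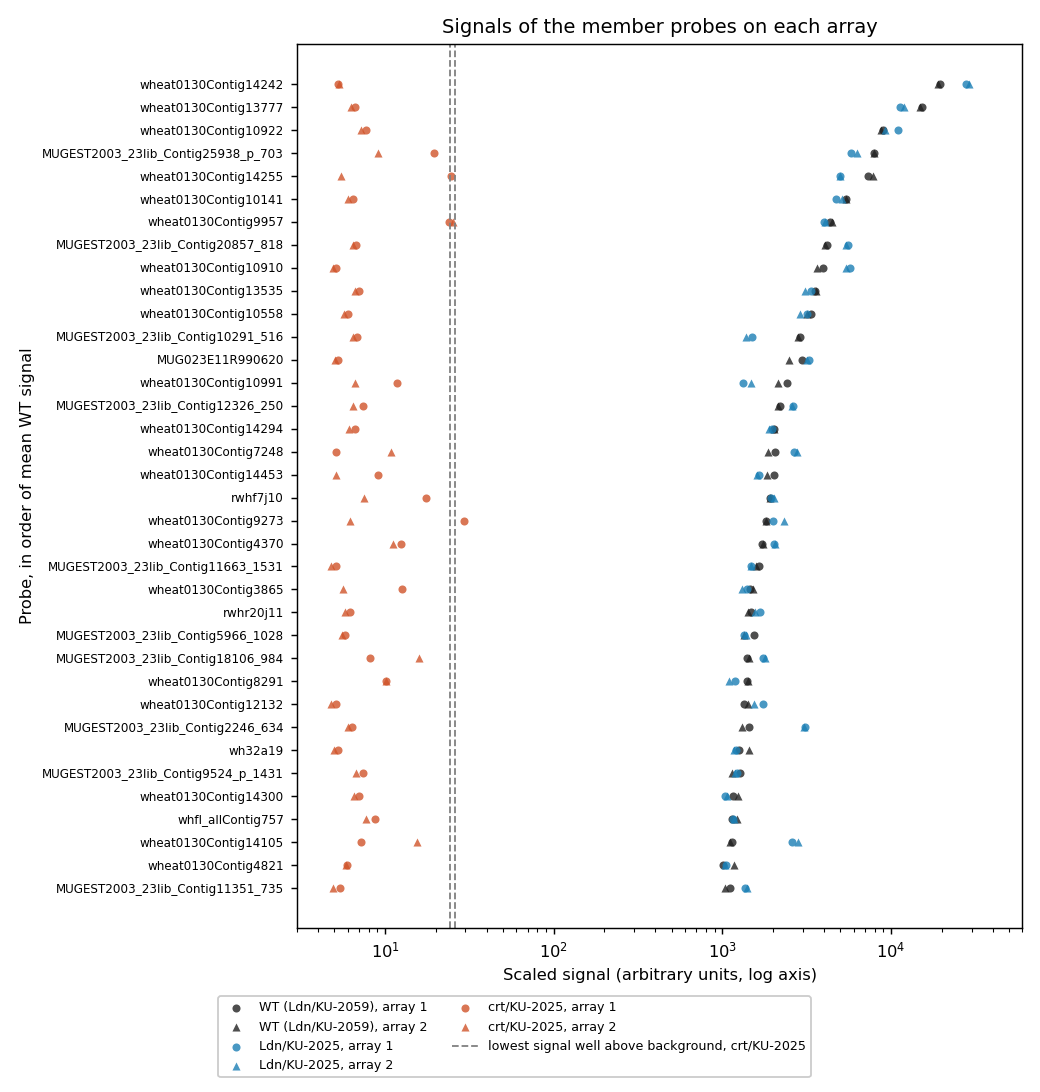
Scaled signal (arbitrary units, log axis) of each of the 36 member probes, listed in order of mean WT signal, with 1 point for each of the 6 arrays; the dashed lines mark the lowest signal well above background on the crt/KU-2025 arrays, 25.8 and 24.2. The WT and Ldn/KU-2025 points all lie above 1000, and the crt/KU-2025 points lie under 30, most of them under 10.

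The probe with the highest member signals was wheat0130Contig14242. Its signals were 19359.9 and 18998.5 in WT, 27606 and 29095 in Ldn/KU-2025, and 5.25 and 5.34 in crt/KU-2025. A probe at background has only an upper limit there, so its fall was taken as at least the ratio of the bright line's mean to the lowest signal well above background on the crt/KU-2025 arrays, or to the probe's own signal where that was higher. By this measure wheat0130Contig14242 in crt/KU-2025 was at least 767-fold under its WT mean and at least 1133-fold under its Ldn/KU-2025 mean. The probe wheat0130Contig13777 gave 15318 and 14886 in WT, 11259.9 and 11894 in Ldn/KU-2025, and 6.67 and 6.28 in crt/KU-2025, a fall of at least 604-fold from WT. The probe wheat0130Contig10922 gave 8922 and 8670.5, then 10913 and 9176, then 7.69 and 7.17 in the same order of lines, a fall of at least 352-fold from WT. In each of these the crt/KU-2025 arrays were within 1 unit of each other and far under every other array.

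For 3 more members the bound on the fall from WT was at least 200-fold. The probe MUGEST2003_23lib_Contig25938_p_703 gave 7903 and 7896 in WT, 5757 and 6269.6 in Ldn/KU-2025, and 19.6 and 9.11 in crt/KU-2025, with a fall of at least 316-fold. The probe wheat0130Contig14255 gave 7312 and 7783 in WT, 4945 and 4989 in Ldn/KU-2025, and 24.5 and 5.45 in crt/KU-2025, with a fall of at least 302-fold. The probe wheat0130Contig10141 gave 5375 and 5433 in WT, 4712 and 5081 in Ldn/KU-2025, and 6.46 and 6.03 in crt/KU-2025, with a fall of at least 216-fold. The first and second of these had 1 brighter crt/KU-2025 array, which was still not well above background.

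The bound on the fall from WT was at least 43.0-fold in every member, with a median of 76.8-fold and a highest value of 767-fold. It was at least 50-fold in 30 members, at least 100-fold in 13 and at least 200-fold in 6. Against Ldn/KU-2025 the bounds were 41.9- to 1133-fold, with a median of 79.9-fold. The size of a bound follows the signal in the bright line, because all members share nearly the same floor in crt/KU-2025. The bounds therefore do not rank the members by the true size of the fall in signal. Members with bounds of at least 100-fold and under 200-fold from WT were wheat0130Contig9957, MUGEST2003_23lib_Contig20857_818, wheat0130Contig10910, wheat0130Contig13535, wheat0130Contig10558, MUGEST2003_23lib_Contig10291_516 and MUG023E11R990620, from 173-fold down to 108-fold. The lowest bound, 43.0-fold, belonged to MUGEST2003_23lib_Contig11351_735, whose signals were 1116 and 1037 in WT, 1361 and 1404 in Ldn/KU-2025, and 5.38 and 4.93 in crt/KU-2025.

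The linear model fitted with limma over all probes gave the members log2 ratios in crt/KU-2025 over WT between -11.82 and -6.74, with a median of -8.03, and a median of -8.07 against Ldn/KU-2025. Because the crt/KU-2025 signals are at the floor, these fitted ratios depend on how the scanner software sets the lowest signals and are no bounds. With limma, at 3-fold and 0.05 after Benjamini-Hochberg adjustment, all 36 were down-regulated in crt/KU-2025 against WT, where 11.0% of all probes were, and all 36 were lower than in Ldn/KU-2025, where 9.98% of all probes were. The rule used both contrasts, so nothing is read from these counts. The median log2 ratio in crt/KU-2025 over WT was 0.00 over the 12081 probes that were bright in WT and Ldn/KU-2025 and 0.10 over all probes.

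The crt/KU-2025 signals were also set against the 153 negative control spots of each array, after background subtraction. These net signals were not scaled between arrays, so they are on another scale than the signals above. On the first crt/KU-2025 array the net signals of the members ran from -10.2 to 11.4 with a median of 0.899, where the negative controls had a median of -2.49, a 95th percentile of 2.40 and a highest value of 20.6. On the second array the members ran from -6.42 to 9.71 with a median of -0.97, where the controls had a median of -1.85, a 95th percentile of 2.63 and a highest value of 18.6. On these arrays 23 and 28 of the 36 members were no brighter than the 95th percentile of the negative controls, and the rest exceeded it. The member median was above the control median on both arrays. Below 0 were 17 and 19 members, and 0 were brighter than the brightest control. On the WT and Ldn/KU-2025 arrays the lowest member net signals were 483 to 528, and 0 members were under the 95th percentile of the controls.

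A weaker flag of the scanner software, positive and significant against the local background, was set for 11 members on the first crt/KU-2025 array and for 9 on the second. It was set on neither array for 22 members, on 1 array for 8 and on both for 6. The 6 were MUGEST2003_23lib_Contig25938_p_703, wheat0130Contig9957, rwhf7j10, wheat0130Contig4370, MUGEST2003_23lib_Contig18106_984 and wheat0130Contig8291. The highest crt/KU-2025 signals of these, on either array, were those of wheat0130Contig9957, with 4369.7 and 4455 in WT, 3992 and 4063 in Ldn/KU-2025, and 24.1 and 25.2 in crt/KU-2025. Its net signals of 10.3 and 9.71 were over the 95th percentile of the negative controls on both arrays. The probe wheat0130Contig4370 gave 1724 and 1741, then 2013 and 2061, then 12.4 and 11.1 in the same order of lines. Its crt/KU-2025 arrays were close to each other and above the floor, yet under the lowest signal well above background. The probe rwhf7j10 gave 1919 and 1909.8 in WT, 1948 and 2012 in Ldn/KU-2025, and 17.6 and 7.50 in crt/KU-2025, so that its crt/KU-2025 arrays differed from each other by more on the log2 scale than its other arrays did.

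In WT and Ldn/KU-2025 the spread between the arrays of a line was close to that of other bright probes. The SD over the members of the log2 difference between the arrays was 0.100 in WT and 0.098 in Ldn/KU-2025, beside 0.109 and 0.100 for the 12081 bright probes. In crt/KU-2025 it was 0.691 for the members and 0.705 for the bright probes, although the median absolute log2 difference of the members was 0.104. A few members therefore carried the spread. The crt/KU-2025 values compare unlike signals, because the members were near the floor and most bright probes were far above it. The largest difference, 2.24 on the log2 scale, was that of wheat0130Contig9273, with 29.3 and 6.22 in crt/KU-2025, beside 1820.5 and 1812 in WT and 1989 and 2319 in Ldn/KU-2025. Its 29.3 was over 25.8, the lowest signal flagged well above background on that array, but the spot itself did not carry the flag. In WT and Ldn/KU-2025 the largest differences of a member between arrays were 0.26 and 0.25.

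The members were a small group at the low end of the bright probes. Of the 12081 probes bright in WT and Ldn/KU-2025, 10931 (90.5%) reached at least 1000 on the brighter crt/KU-2025 array as well. Another 880 reached 300 to 1000, 181 reached 100 to 300 and 51 reached 30 to 100. Between 10 and 30 there were 12, and under 10 there were 26 (0.215%), more than in the bin above it. A total of 39 bright probes were not well above background on either crt/KU-2025 array, close to the 36 members.

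**Figure D2:**
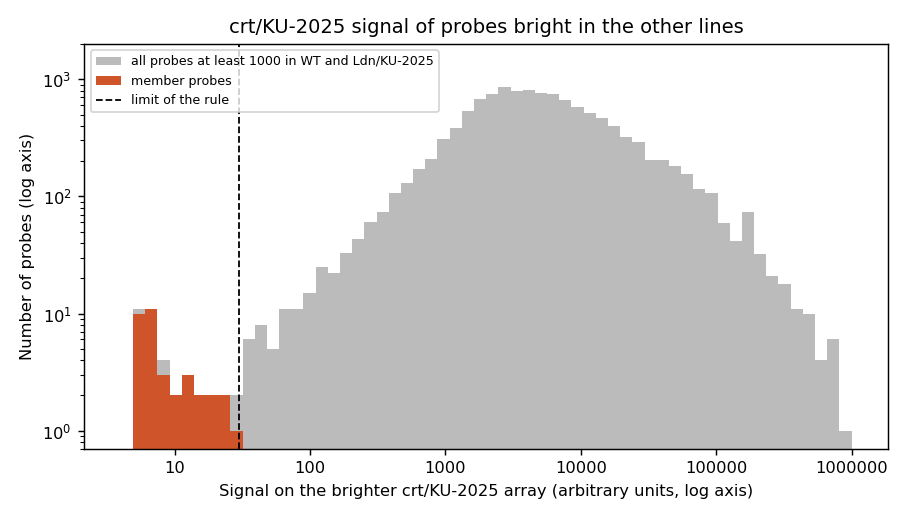
Number of probes (log axis) by their signal on the brighter crt/KU-2025 array (arbitrary units, log axis), for the 12081 probes of at least 1000 on all WT and Ldn/KU-2025 arrays, with the 36 members in color and the limit of 30 dashed. Most bright probes peak above 1000, and the members lie next to the floor, largely under 10.

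The limits of the rule left probes on either side. The members nearest to the lower limit of 1000 were wheat0130Contig4821, MUGEST2003_23lib_Contig11351_735 and wheat0130Contig14300, with lowest WT or Ldn/KU-2025 signals of 1011.6, 1038 and 1042.7 in the deposited table, and the nearest probes outside were wheat0130Contig10878, wheat0130Contig11847 and rwhdl10d14, with 988.6, 976.7 and 920.7. Nearest to the crt/KU-2025 limit of 30 were wheat0130Contig9273, wheat0130Contig9957 and wheat0130Contig14255 inside, with 29.3, 25.2 and 24.5 on the brighter array, and MUG021D01R990620, MUG007C11R990628 and wheat0130Contig13248 outside, with 31, 32.5 and 36. Nearest to the limit of 0.5 on the ratio of Ldn/KU-2025 to WT were MUGEST2003_23lib_Contig10291_516 with 0.53, wheat0130Contig14255 with 0.68 and wheat0130Contig10991 with 0.69. The only probe that missed this limit alone was MUG009A01R990107, with a ratio of 0.498, whose signals were 3361 and 2821 in WT, 1398 and 1406 in Ldn/KU-2025, and 5.20 and 4.86 in crt/KU-2025.

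Both lines with the Langdon parent gave similar signals for most members. The median log2 ratio in Ldn/KU-2025 over WT was -0.04 over the members, with a range of -0.99 to 1.26, and the median size of the ratio was 0.24, beside 0.20 over the bright probes and 0.23 over all probes. Within 1.5-fold of WT were 31 members (86.1%), beside 88.4% of the bright probes. In limma, by the same limits, 0 members were higher in Ldn/KU-2025, where 0.970% of all probes were, and 0 were lower, where 0.196% were. At an unadjusted p under 0.05 limma had 8 of the 36 members higher and 3 lower, where 17.1% and 13.5% of all probes were. The test named in the study's methods, run on the same values, called 0 as well. The fit of all arrays shares 1 estimate of the spread, which takes in the crt/KU-2025 signals at the floor. In a limma fit of only the WT and Ldn/KU-2025 arrays, 19 members had an unadjusted p under 0.05 in either direction. The share of all probes under 0.05 in that fit was not computed. The rule bounded this contrast on the low side and required brightness in both lines, so these counts are a description only.

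WT and Ldn/KU-2025 arrays did not overlap in 32 members (88.9%), 16 with Ldn/KU-2025 higher and 16 with it lower, beside 72.8% of all probes and 84.5% of the bright probes. The 4 members with overlapping arrays were MUGEST2003_23lib_Contig5966_1028, MUGEST2003_23lib_Contig9524_p_1431, whfl_allContig757 and wheat0130Contig4821. For example, whfl_allContig757 gave 1144 and 1217 in WT and 1157 and 1178 in Ldn/KU-2025, against 8.71 and 7.77 in crt/KU-2025. Its WT and Ldn/KU-2025 signals were in one narrow band, and both crt/KU-2025 arrays lay far below it.

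Outside 1.5-fold were 5 members. The probe wheat0130Contig14105 gave 1133 and 1109.9 in WT and 2575 and 2803 in Ldn/KU-2025, with means of 1121 ± 16 and 2689 ± 161 (SD, n = 2), 2.40-fold higher in the dwarf line. Its crt/KU-2025 signals were 7.17 and 15.4. The probe MUGEST2003_23lib_Contig2246_634 gave 1436 and 1302 in WT and 3068 and 3048 in Ldn/KU-2025, 2.24-fold higher, with 6.40 and 6.01 in crt/KU-2025. In both probes the WT and Ldn/KU-2025 arrays were well apart, and the dwarf lines, which share the Ae. tauschii parent, lay on opposite sides of WT.

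The other 3 were dimmer in Ldn/KU-2025 than in WT. The probe MUGEST2003_23lib_Contig10291_516 gave 2894 and 2800.1 in WT, 1489 and 1375 in Ldn/KU-2025, and 6.83 and 6.46 in crt/KU-2025, with WT 1.99-fold over Ldn/KU-2025. The probe wheat0130Contig10991 gave 2399 and 2144 in WT, 1318 and 1477 in Ldn/KU-2025, and 11.8 and 6.61 in crt/KU-2025, with WT 1.63-fold over Ldn/KU-2025. In wheat0130Contig14255 the WT mean of 7547 ± 333 (SD, n = 2) was 1.52-fold over the Ldn/KU-2025 mean of 4967 ± 31.2. In all 3 the dwarf lines were on the same side of WT, but Ldn/KU-2025 kept more than 0.5 times the WT signal and crt/KU-2025 was at background.

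**Figure D3:**
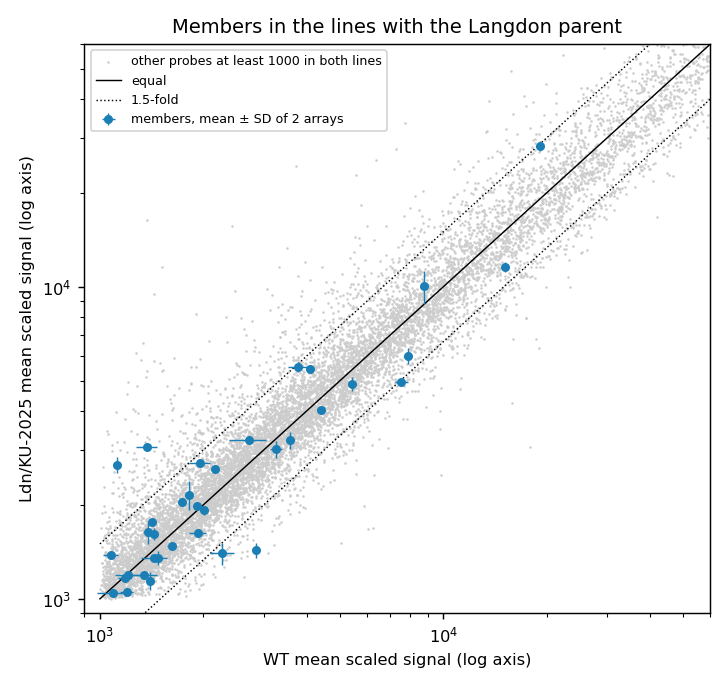
Mean scaled signal of WT against Ldn/KU-2025 (arbitrary units, log axes that span the range of the members), with the 36 members as points with the SD of 2 arrays and the other probes of at least 1000 in both lines in grey. The solid line is equality and the dotted lines are 1.5-fold; 31 members lie between the dotted lines.

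A further set of members had WT means between 1339.6 and 2162 and stayed within 1.5-fold between WT and Ldn/KU-2025. They include MUGEST2003_23lib_Contig12326_250, with 2186 and 2138 in WT, 2634 and 2589.6 in Ldn/KU-2025, and 7.38 and 6.50 in crt/KU-2025. The probe wheat0130Contig14294 gave 2012 and 2009, then 1962 and 1878, then 6.64 and 6.10 in the same order. The probe MUGEST2003_23lib_Contig11663_1531 gave 1653 and 1583, then 1480.0 and 1473, then 5.15 and 4.77, the last at the lowest signals of the crt/KU-2025 arrays. The same pattern of bright, bright and background was shown by wheat0130Contig7248, wheat0130Contig14453, wheat0130Contig3865, rwhr20j11, wheat0130Contig12132 and wh32a19. Of these, wheat0130Contig7248, wheat0130Contig14453 and wheat0130Contig3865 had 1 crt/KU-2025 array with the weaker detection flag, at 10.9, 9.06 and 12.6.

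Exchanging the lines showed how often 1 line stood apart in this way. Without the condition on the ratio and with rwhf1p23 counted, 38 probes were under 30 in crt/KU-2025 and at least 1000 in both other lines, while 2 probes had this pattern with WT as the dark line and 0 with Ldn/KU-2025. In the opposite direction, 49 probes were at least 1000 in crt/KU-2025 and under 30 in both other lines, against 1 for WT and 0 for Ldn/KU-2025. The single probes of the other lines, named after their values were seen, were wheat0130Contig5054 and rwhei10o03_351, dark in WT, and wheat0130Contig9191, seen in WT alone. The last gave 18116 and 19419 in WT, 6.69 and 6.74 in Ldn/KU-2025, and 7.90 and 7.25 in crt/KU-2025. It was thus dark in both dwarf lines, unlike the members, which were dark in only 1 of them.

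**Figure D4:**
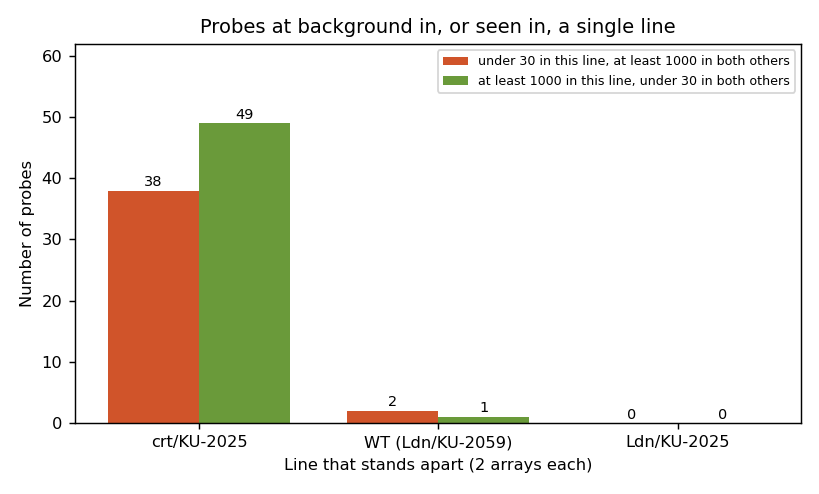
Number of probes, for each line, that were under 30 in that line and at least 1000 in both others, or at least 1000 in that line and under 30 in both others, on all arrays. The crt/KU-2025 line had 38 and 49 such probes, WT had 2 and 1, and Ldn/KU-2025 had 0 and 0.

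The count of members depended on having both crt/KU-2025 arrays. Had only the second crt/KU-2025 array been required to be under 30, 38 more probes would have joined, with signals of 32.5 to 2476 and a median of 133 on the first array. Had only the first been required, 15 more would have joined, with 31 to 439 and a median of 92.6 on the second.

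The members had no shared place on the array. They lay in all corners of the grid of 532 rows and 85 columns, with 11, 7, 10 and 8 in the upper left, upper right, lower left and lower right, and 0 had another member among the 8 nearest spots. Their 288 neighbouring spots had a median log2 ratio in crt/KU-2025 over WT of 0.01. Of these neighbours 27.1% were not well above background on both crt/KU-2025 arrays and 28.1% on both WT arrays, beside 21.9% and 23.4% of all probes. The median local background of the members equaled that of all probes on the crt/KU-2025 arrays, 22 on the first and 24 on the second, and 0 member spots carried a flag for uneven pixels or for a population outlier on any array.

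By the start of their names, 21 members (58.3%) were wheat0130Contig probes, beside 54.6% of the bright probes and 36.9% of all probes. Another 10 (27.8%) were MUGEST2003_23lib_Contig probes, beside 14.4% and 20.1%. One member was a MUG0 probe, and 4 had other names. In 2 members the name carries a letter p and the array holds an m probe of the same contig, a letter whose meaning is not given in the sources used here. The partner of MUGEST2003_23lib_Contig25938_p_703 gave 7.20 to 8.56 and that of MUGEST2003_23lib_Contig9524_p_1431 gave 7.85 to 9.41 over the 6 arrays, and both were well above background on 0 arrays. Such a dark partner was not particular to members. Of 94 contigs with exactly 1 of their p and m probes among the bright probes, 36 had a partner that was not well above background on any array. No gene name or function is given for the members, because 0 of the 36 had a description in the supplementary tables read, 1 of which was held in part, and 0 matched a symbol or identifier of the RefSeq gene table.

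Lists of named genes were set beside the members. The study chose those lists on these arrays, so that they are not independent evidence of a direction. Of 6 MADS-box probes, which belong to the transcription factors that set the fate of the shoot apex and its flowers, limma called 5 lower in crt/KU-2025 than in WT. As 4 of the 6 were not well above background there, the median log2 ratio is given with these at their bounds, at -3.58 or lower. Their summed signals were 7032 and 7453 in WT, 7123 and 6978 in Ldn/KU-2025, and 1628 and 1901 in crt/KU-2025. Of the transcription factor probes that the study names as lower in crt/KU-2025, 12 remained without rwhf1p23, which is on that list. Some of them are also among the MADS-box probes above, so the counts overlap. All 12 were called lower, with a median log2 ratio of -2.53 with the 3 at background at their bounds, and 11 of 11 named as higher were called higher, with a median of 2.67. All 4 probes for histones, the proteins that package DNA, were called lower in crt/KU-2025 (median log2 ratio -4.61). In Ldn/KU-2025 1 of the 4 was called lower, with a median log2 ratio of -2.12 over the list. The summed signals of the histone probes were 26993 and 26926 in WT, 6499 and 7083 in Ldn/KU-2025, and 2316 and 399 in crt/KU-2025. Over all probes, 11.0% were called lower and 11.8% higher in crt/KU-2025 against WT, and 0.196% lower in Ldn/KU-2025.

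Of the stress-related lists, 14 of 15 probes for peroxidases, which oxidize substrates with hydrogen peroxide, and 13 of 16 probes for disease resistance proteins were up-regulated in crt/KU-2025 against WT, and 10 and 2 were so in Ldn/KU-2025, where 11.8% and 0.970% of all probes were up-regulated in these lines. Of the disease resistance probes, 2 were down-regulated in each of the dwarf lines. In WT 5 of the 15 peroxidase probes and 9 of the 16 disease resistance probes were not well above background. Both lists hold probes that the study listed as changed, and its part on probes lower in crt/KU-2025 was not held in full. The counts therefore do not measure how often either family rose. As counted without rwhf1p23, which met the limits and was left out, 0 of the 36 members were in any of these lists. For the lists drawn from the supplementary descriptions this count was fixed beforehand. Of the members, 0 had a description in the tables read, which were not held in full. Nothing about the function of the members is read from it. Whether the shift of the probes in these lists has a part in the low member signals was not tested.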

How the data were processed

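Cy3-labeled cRNA from crown tissues of Ldn/KU-2059 (WT) and of both dwarfs, crt/KU-2025 and Ldn/KU-2025, was measured on 2 arrays per line, grouped by the sample labels. The authors deposited scanner tables with an intensity for each spot, processed by Agilent Feature Extraction (version 9.5 per the submitters' processing notes), background-subtracted and spatially detrended but not scaled between arrays. They also deposited a table of intensity values scaled between arrays, whose columns were 1.0004 to 1.0005 times the values computed here. Replicates were not pooled. The rule for the members was applied to the deposited table.

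From the scanner tables, 1417 control spots were left out and 37826 probes kept. The signals of an array were brought to a trimmed mean of 2500, leaving out 2% of the values at either end as the study did, and log2 was taken with no floor. The limma package 3.58.1 (R 4.3.3) fitted a linear model of the 3 lines to the 6 arrays by lmFit and eBayes, with 3 residual degrees of freedom and a prior of 1.23. A probe was called where it passed 3-fold and, after Benjamini-Hochberg adjustment over all probes, 0.05. The p-values measure only the spread between these arrays, and the number of arrays limits the precision. The fit was tested on simulated data. Tables used pandas 2.3.3, numpy 2.4.6 and scipy 1.17.1 under Python 3.11.15, and figures matplotlib 3.10.9.

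A fall into background is given as a bound, from the mean log2 signal of the bright line against, on each crt/KU-2025 array, either the probe's own signal or the lowest signal flagged well above background, whichever was higher. The members, lists and tests were chosen with earlier results of these data known. The text names all members, the 3 probes nearest to each limit on either side where there were as many, other probes of a member's contig, and rwhf1p23 by name only, whose values enter no list result given here. The lists are MADS-box probes, transcription factors named in the paper, and probes that its supplementary table describes as histone, chlorophyll a/b binding protein, ribulose bisphosphate carboxylase or activase, peroxidase or disease resistance protein. Of the latter lists the table's part on probes lower in crt/KU-2025 was held in part. Of the photosynthesis lists, 1 of 14 chlorophyll a/b binding protein probes and 0 of 5 ribulose bisphosphate carboxylase probes were up-regulated in crt/KU-2025 against WT. Over all probes 11.8% were. The median log2 ratios of these lists were nevertheless 2.26 and 3.42. Their summed signals differed widely between the crt/KU-2025 arrays, with 10965 and 91718 for the former list and 5347 and 85307 for the latter.

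Alternatives were 75th percentile scaling, quantile normalization, the authors' scaled table, the replicate number as a block, leaving out 1 array at a time, a fit of only the lines compared, the methods' t-test, removal of dim probes, a 2-fold threshold, other limits in the rule, another detection flag, and normexp background correction with an offset of 50, run on median spot signals because the tables used here hold no mean signals. No sequences or annotation of the probes were used.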

Additional observations from a re-analysis of the deposited data

How the results depend on the processing

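The number of members was set by the limits. It was 56 with crt/KU-2025 under 60, 71 with WT and Ldn/KU-2025 at least 500 and 13 with at least 2000. It was 36 to 74 with 1 array left out in turn, 74 of these without replicate 1 of crt/KU-2025, and the count of probes dark in crt/KU-2025 and bright in both other lines was then 78, against 38 to 78 over all such fits. With the 75th percentile scaling the rule took 39 probes, 36 of them members, and with quantile normalization 37, 35 of them members.

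All 36 members kept their calls in crt/KU-2025 against WT and Ldn/KU-2025 under every alternative run. The rule had already required a wide gap in both contrasts on the same arrays, so nothing is read from this. In Ldn/KU-2025 against WT 0 members were called except 1 at 2-fold, MUGEST2003_23lib_Contig2246_634, or 2 at 2-fold in a fit of those lines only. At 2-fold 2.26% of all probes were higher and 0.423% lower in the fit of all arrays. The median bound on the fall from WT was 88.6-fold with 75th percentile scaling, 74.0- to 79.3-fold with 1 array left out, and 260.4-fold when the floor was the lowest signal flagged as positive and significant. With normexp the median log2 ratio of the members was -4.14 against WT and -4.11 against Ldn/KU-2025, since the offset raises the floor. The members' median log2 ratio in Ldn/KU-2025 over WT was -0.12 with either other scaling, where the median of all probes moved from -0.02 to -0.11 with the 75th percentile and to -0.04 with quantile normalization, and -0.048 to -0.019 with 1 array left out. In all, 13 values moved and 0 reversed.

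The replicate numbers did not pair the arrays, with correlations of deviations of -0.07, 0.03 and -0.06 between lines, and with the replicate block the counts were 36, 36 and 0, the same as without it. Background limits the result at the floor. In crt/KU-2025 0 members were well above background. The weaker flag was set on neither array for 22 members. For these, absence, a trace of transcript and a transcript that differs in sequence under the probe cannot be told apart. The flag was set on both arrays for 6, which had a faint signal.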
